A study of Mus musculus with 4 samples.

Results

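The cells described here were cluster 8 of the Fibroblasts class, a group of mouse lung fibroblasts defined by 2 labels that the authors deposited for every cell, the class name and the cluster number. It held 2221 of the 12336 cells of the class (18.004%) and of the 45936 cells of the whole series (4.83%). The cells came from alveolospheres, organoid co-cultures of wild-type alveolar type 2 cells (AT2), which make surfactant and serve as stem cells of the alveolus, with PDGFRα-positive fibroblasts. In the YAP/TAZ KD group the genotype was wild-type AT2 cells with a knockdown of YAP and TAZ specific to PDGFRα cells. In the Control group the genotype was wild type. Both groups received the same 3 µg/ml doxycycline, dissolved in DMSO, from day 7 and were collected on day 14, so neither group was free of the drug. Each group had 2 libraries, all 4 in 1 labelled batch. The labels call them biological replicates but give no animal, strain, age or culture of origin, so every p-value measures the spread between these libraries. RNA was read with a 10x kit that measures RNA and open chromatin in the same cell.

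YAP and TAZ (genes Yap1 and Wwtr1) are transcriptional co-activators that the kinases of the Hippo pathway hold out of the nucleus; when active they bind TEAD factors on DNA and switch on genes of growth, cytoskeleton and matrix. Lung fibroblasts fall into several states with different duties: alveolar fibroblasts sit beside AT2 cells and supply Wnt, FGF and BMP-pathway signals, adventitial fibroblasts line vessels and airways and secrete chemokines, and myofibroblasts contract and lay down elastic fibres. Elastic fibres consist of an elastin core on a scaffold of fibrillins, fibulins and microfibril-associated proteins, and basement membranes are sheets of collagen IV, laminins, nidogens and the collagens XV and XVIII.

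Cluster 8 held 631 and 347 cells in KD libraries 1 and 2, against 563 and 680 cells in Control libraries 1 and 2. These were 27.8% and 21.5% of the class in the KD libraries (exact 95% binomial intervals 25.9 to 29.7% and 19.5 to 23.6%), against 13.4% and 16.0% in the Control libraries (12.4 to 14.5% and 14.9 to 17.2%). Both KD shares lay above both Control shares; the exact permutation test has 6 ways to split 4 libraries into pairs, so its smallest two-sided p is 2 of 6 and cannot reach 0.05. The intervals cover counting error only. The other clusters were spread far less evenly: cluster 0 held 66 and 23 KD cells against 2412 and 2035 Control cells, cluster 5 held 1393 and 1149 against 7 and 76, cluster 11 held 134 and 86 against 593 and 936, and cluster 18 held 48 and 11 against 627 and 519. Apart from cluster 8, cluster 11 was therefore the single cluster with at least 50 cells in every library.

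The summed RNA of cluster 8 came to 3064197 and 1992252 unique molecular identifiers (UMIs, counts of captured RNA molecules) in KD libraries 1 and 2, against 2001044 and 2464450 in Control libraries 1 and 2. Its cells were deeper in the KD libraries, with a median of 4441 and 5419 UMIs per cell against 3200 and 3347.5 in the Control libraries, and carried more chromatin fragments, with medians of 16224 and 24943 against 8794 and 10328. The authors' doublet enrichment ratio was also higher, at a median of 0.636 and 1.09 in KD against 0.358 and 0.488 in Control. The mitochondrial share did not separate the groups, with medians of 26.5% and 17.4% in KD against 21.5% and 20.7% in Control, and KD libraries 1 and 2 were the highest and the lowest. A second deposited annotation called 2013 of the 2221 cells (90.6%) fibroblasts. Of the cells' barcodes, 93 also occurred in another library of the series, and 3 occurred in cluster 8 of more than 1 library.

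The label of fibroblast held against marker genes. Pdgfra, the receptor used to isolate the fibroblasts, was at 403 and 489 CPM in KD and 408 and 453 CPM in Control (CPM, counts scaled to 1 common total of UMIs per library and adjusted between libraries). The summed level of 6 fibroblast markers (Col1a1, Col1a2, Col3a1, Pdgfra, Dcn, Lum) was 8199 and 7701 CPM in KD against 6879 and 9269.8 CPM in Control, with overlapping groups and 0 of 6 past edgeR's or DESeq2's test (1 of 6 at an unadjusted p under 0.05 by edgeR). Of all 10766 genes tested, 1841 had such an unadjusted p, and 186 (1.73%) rose and 220 (2.04%) fell past edgeR's test. Endothelial markers summed to at most 6.88 CPM, Schwann markers to at most 5.16 CPM, basal cell markers to at most 15.9 CPM and ciliated cell markers to at most 23.1 CPM in any library. Other lists were not near 0, and their groups overlapped. General epithelial markers summed to 168 and 160 CPM in KD against 211 and 163 CPM in Control. Smooth muscle and myofibroblast markers summed to 339 and 421 CPM against 410 and 523 CPM. Alveolar type 1 markers summed to 64.3 and 37.6 CPM against 46.2 and 43.8 CPM. RNA of some other cell types did move with the groups. AT2 markers summed to 2712 and 1256 CPM in KD against 891 and 1058 CPM in Control, which was 3.21%, 1.30%, 1.37% and 1.16% of their level in the AT2 cells of KD libraries 1 and 2 and Control libraries 1 and 2. Of the 8 AT2 markers, Sftpa1, Sftpb and Sftpc, which encode surfactant proteins, rose and the other 5 did not pass; the calls of Sftpb and Sftpc were lost without KD library 1 (adjusted p = 0.242 and 0.357). Airway secretory markers summed to 1.38 and 277 CPM in KD against 1490.5 and 330.2 CPM in Control, so KD library 1 stood far below the rest. Of these 5 markers Scgb1a1, Scgb3a1, Bpifa1 and Muc5b fell by edgeR and 0 did by DESeq2, and without Control library 1 the adjusted p was 0.132 for Scgb1a1 and 0.487 for Muc5b. Mesothelial markers summed to 29.6 and 41.5 CPM in KD against 73.7 and 64.5 CPM in Control, with Lrrn4 at 0 in every library; Msln and Krt19 fell, but Krt19 not without KD library 1 (0.254) or Control library 1 (0.116). Pericyte markers summed to 236 and 299 CPM in KD against 165 and 197 CPM in Control, and Abcc9 rose, a call lost whichever library was left out (0.0504 to 0.144).

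Cluster 8 differed from the other clusters of its class in genes such as Col18a1, Penk and A2m, which were higher, and Saa3 and Tnc, which were lower. Because the clusters had been made from these cells' own RNA, the differences between clusters describe cluster 8 and carry no test. A gene counted as higher when its CPM in cluster 8 lay above that of clusters 0, 5, 11 and 18 in every library in which both held 50 cells, with at least 20 CPM on average in cluster 8; a gene counted as lower by the mirror rule. By this rule 246 of 7271 genes were higher (3.38%) and 98 were lower (1.35%). Means are over libraries with 50 cells of the cluster, which were KD library 1 and both Control libraries for cluster 0, both KD libraries and Control library 2 for cluster 5, all 4 for clusters 8 and 11, and the 2 Control libraries for cluster 18. Values for clusters are CPM without scaling between libraries.

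All 4 of the cluster's markers stood above the other clusters in every library. Col18a1 (chr10:77052178-77166548, minus strand, GRCm38), which encodes the basement membrane collagen XVIII, averaged 779 CPM in cluster 8 against 98.5, 285, 129 and 239.8 CPM in clusters 0, 5, 11 and 18. Mfap4 (chr11:61485431-61488900, plus strand), a glycoprotein of elastic fibres, averaged 495 CPM in cluster 8 against 121, 216, 123 and 178 CPM. Inmt (chr6:55170626-55175043, minus strand), a methyltransferase found in alveolar fibroblasts, averaged 152 CPM in cluster 8 against 24.2, 35.8, 46.7 and 16.2 CPM. Col18a1 and Mfap4 were spread widely over the cells of the cluster. Apod (chr16:31296192-31314808, minus strand), a lipid-binding secreted lipocalin, averaged 71.4 CPM in cluster 8 against 2.82, 1.40, 20.4 and 4.14 CPM, but it came from few cells: 46 and 33 cells in KD and 32 and 35 cells in Control held an Apod UMI, and 1 cell of Control library 1 held 102 of them. The 5% of cells richest in Apod held 89.0% and 91.3% of its UMIs in KD and 98.0% and 99.2% in Control, whereas the 5% richest in Col18a1 held 24.2% and 21.7% of its UMIs in KD and 28.3% and 28.0% in Control.

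When each cell was thinned to 2000 UMIs, leaving out 13 and 6 shallower cells in KD and 44 and 61 in Control, 62.1% and 69.5% of KD cells against 46.2% and 50.4% of Control cells held Col18a1. Before thinning these shares were 75.0% and 85.9% against 55.4% and 64.1%. AT2 cells, set beside cluster 8 as a background, held Col18a1 in 29.4% and 26.0% against 23.9% and 17.97% of thinned cells, at median depths before thinning of 4862.5 and 5454 UMIs in KD and 3614 and 3812.5 UMIs in Control. Mfap4 was held by 57.6% and 58.7% of thinned KD cells against 43.2% and 49.4% of Control cells of cluster 8 (before thinning 74.5% and 81.8% against 56.8% and 61.6%), and by 2.40% and 2.24% against 2.66% and 1.30% of AT2 cells. Inmt was held by 18.1% and 28.4% against 12.3% and 17.8% of cluster 8 cells (before thinning 32.0% and 52.7% against 21.1% and 24.3%) and by at most 2.60% of AT2 cells in any library. Apod was held by 4.53% and 5.57% against 4.82% and 4.36% of cluster 8 cells (before thinning 7.29% and 9.51% against 5.68% and 5.15%). Of the thinned AT2 cells, 0 of 875 and 0 of 223 in KD held Apod, which allows shares of up to 0.421% and 1.64% (exact 95% limit), against 1 of 451 and 0 of 462 in Control. Few cells carried all 4 markers together, 0.809% and 1.76% in KD against 0.385% and 0.323% in Control, while 13.4% and 12.9% against 29.1% and 24.7% carried none at this depth.

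The genes that stood farthest above the nearest other cluster included Penk, A2m and genes of fibrinogen and kininogen. Penk (chr4:4133531-4138819, minus strand), the precursor of the enkephalin opioid peptides, averaged 714 CPM in cluster 8 against 68.4, 181, 119 and 88.1 CPM in clusters 0, 5, 11 and 18. A2m (chr6:121635376-121679227, plus strand), a broad protease inhibitor of plasma, averaged 302 CPM against 67.1, 57.2, 59.4 and 26.2 CPM. Fgg and Fga, which encode fibrinogen chains better known from liver, averaged 39.4 and 38.1 CPM in cluster 8 against at most 6.86 and 9.79 CPM in any other cluster. Kng1 and Kng2, near-identical kininogen genes whose reads may be shared, averaged 33.6 and 119.9 CPM against at most 7.22 and 30.9 CPM; Kng2 was as abundant in AT2 cells, at 166 and 178 CPM in KD and 123 and 180.0 CPM in Control. Moxd1, a monooxygenase related to dopamine beta-hydroxylase, averaged 60.5 CPM in cluster 8 against at most 14.5 CPM, and Cyp1b1, a cytochrome P450, 115 CPM against at most 40.3 CPM. Camk4, a calmodulin-dependent kinase, averaged 21.4 CPM against at most 9.24 CPM. Counts of list members that were higher are read against the 3.38% of all 7271 genes. Those genes reached 20 CPM on average in some cluster, while the lists count members of any level. Mfap4, in the elastic fibre list, is among the cluster's own markers, so its counting as higher is no finding. Among 15 elastic fibre genes 6 were higher in cluster 8 by the rule, with Fbln1 (fibulin 1) at 323 CPM against 93.2, 132, 159 and 106 CPM and Mfap2, Efemp1, Efemp2, Fbn1 and Mfap4 beside it. Elastin itself (Eln) did not meet the rule, since its 550.0 CPM in cluster 8 lay below the 967 CPM of cluster 18. Of 10 IGF pathway genes 2 were higher, Igf1 at 1144 CPM against at most 691 CPM and its binding protein Igfbp4 at 3128 CPM against at most 2043 CPM.

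The lower genes included Saa3, Tnc, Grem1 and Rspo3. Saa3, an acute phase protein, averaged 25.7 CPM in cluster 8 against 157, 126, 153 and 211 CPM in clusters 0, 5, 11 and 18. Tnc, the matrix glycoprotein tenascin C, averaged 517 CPM against 1823, 884, 1154 and 1125 CPM. Grem1, a secreted BMP antagonist, averaged 134 CPM against 359.9, 384, 377 and 419 CPM, and Mmp10, a stromelysin, 9.22 CPM against 47.7, 33.7, 40.4 and 43.2 CPM. Sema3a, a guidance factor, averaged 82.9 CPM against 249, 203, 180.2 and 281 CPM, and Rspo3, which strengthens Wnt signals, 17.4 CPM against 90.1, 59.0, 45.8 and 27.0 CPM. Over all 7271 genes 3.38% were higher and 1.35% lower by the rule. Of 20 alveolar fibroblast and lipofibroblast genes 4 were higher in cluster 8 by the rule (Adh1, Inmt, Mfap4 and Slit2) and 1 was lower (Gyg). Npnt of the same list, which encodes the integrin ligand nephronectin, averaged 3.88 CPM in cluster 8 against 50.2, 68.6, 6.02 and 38.0 CPM, so clusters 8 and 11 were both low, but it did not meet the rule. Of 15 adventitial fibroblast genes 2 were higher (Apod and Serpinf1) and 0 lower. Inmt, Mfap4 and Apod are among the cluster's own markers, so their counting as higher is no finding. The 8 adventitial markers summed to 311 CPM in cluster 8 against 270.4, 276, 233 and 278 CPM in clusters 0, 5, 11 and 18, with Pi16 and Cd34 under 2 CPM in cluster 8.

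**Figure D1:**
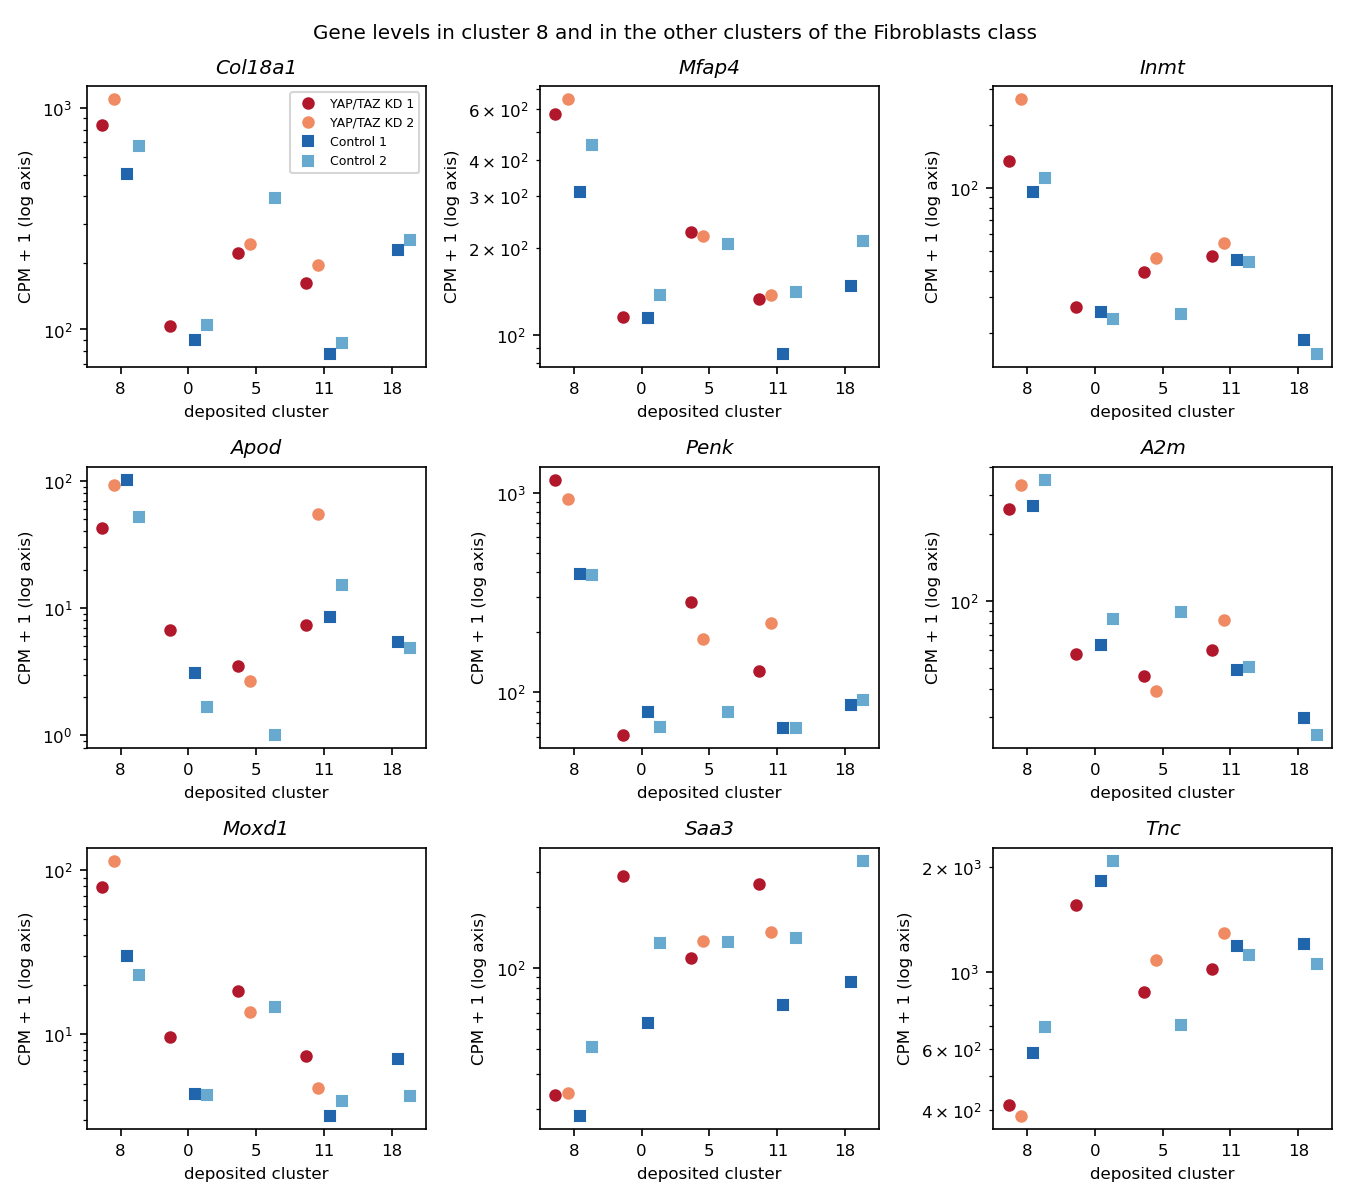
Levels of 9 genes by deposited cluster of the Fibroblasts class, as CPM + 1 on a log axis. Each point is 1 library with at least 50 cells of that cluster; circles are YAP/TAZ KD and squares Control. In cluster 8 the first 7 genes lie above the other clusters of the same library and Saa3 and Tnc lie below them, and Penk and Moxd1 also differ between KD and Control within cluster 8.

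The second question was what the knockdown did within cluster 8, and it was put to 10766 genes with edgeR's quasi-likelihood test on the summed counts of the 4 libraries, with Benjamini-Hochberg adjustment over all of them; every adjusted p comes from this test unless DESeq2 is named. At an adjusted p under 0.05, 406 genes (3.77%) differed, of which 186 (1.73%) rose and 220 (2.04%) fell in KD, and 169 differed at least 2-fold. By DESeq2 131 of the same 10766 genes passed, 61 higher and 70 lower. Counts of passing list members are read against these numbers. At an unadjusted p under 0.05 edgeR's test gave 1841 of the 10766 genes. The median log2 fold change of all genes was 0.01. The groups did not overlap in any of the 406 genes, nor in 5123 of all 10766 (47.6%), those included. Since RNA was summed over cells, a change in few cells and a change in all of them cannot be told apart in these sums.

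The targets of the knockdown were lower by a modest amount. Yap1, the YAP gene (chr9:7931999-8004596, minus strand), was at 46.4 and 39.6 CPM in KD libraries 1 and 2, against 64.0 and 76.3 CPM in Control libraries 1 and 2. Both KD values lay below both Control values, and the log2 fold change was -0.70 ± 0.18 (SE, adjusted p = 0.026). Wwtr1, the TAZ gene (chr3:57455649-57575910, minus strand), was at 206 and 196 CPM in KD against 294 and 296 CPM in Control, with no overlap and a log2 fold change of -0.56 ± 0.15 (adjusted p = 0.0421). Neither call was firm: that of Yap1 was lost without KD library 2 (adjusted p = 0.246) or Control library 2 (0.104), and that of Wwtr1 whichever library was left out (0.0616 to 0.334). In the wild-type AT2 cells of the same libraries the KD values also lay below the Control values, with Yap1 at 70.3 and 70.2 CPM in KD against 91.3 and 83.7 CPM in Control and Wwtr1 at 177 and 121 CPM against 243 and 191 CPM. Where on its transcripts the knockdown acts is not in the labels.

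Of 21 tested genes of the Hippo pathway, which comprise its kinases, YAP, TAZ and the TEAD factors with their cofactors, 0 rose and 5 fell, with a median log2 fold change of -0.18. They were Yap1, Wwtr1, the TEAD cofactor Vgll3, the YAP-binding Amotl2 and Wwc2, a scaffold of the kinases. Over all genes tested 1.73% rose and 2.04% fell. Vgll3 was at 10.3 and 7.91 CPM in KD against 23.1 and 22.7 CPM in Control, without overlap, and its log2 fold change of -1.30 ± 0.27 (adjusted p = 0.00861) held whichever library was left out. Of 20 tested classic YAP/TAZ target genes 0 rose and 3 fell, with a median of -0.30: Amotl2, Crim1, a transmembrane regulator of growth factors, and Dlc1. Crim1 was at 40.9 and 26.2 CPM in KD against 77.5 and 64.5 CPM in Control, and its log2 fold change was -1.05 ± 0.20 (adjusted p = 0.00355, or 0.0669 without KD library 2). The best-known targets did not pass. Ccn1 was at 225 and 219.6 CPM in KD against 262 and 219 CPM in Control, and Ccn2 at 50.2 and 45.0 CPM against 60.7 and 30.4 CPM, both with overlapping groups. Without 1 library in turn the falls numbered 1 to 3 in the Hippo list and 0 to 4 among the targets, and by DESeq2 0 and 1. The calls of Amotl2 and Wwc2 were lost without KD library 1 (0.0830 and 0.0943), KD library 2 (0.182 and 0.183) or Control library 1 (0.456 and 0.242), and that of Dlc1 without KD library 2 (0.405) or Control library 1 (0.135).

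The promoters of 4 of these falling genes are printed because they hold the core motif GGAATG that TEAD factors are known to bind. Each is the RefSeq sequence of GRCm38.p6 from 250 bases before the transcript start to 50 bases from it on, written 5′ to 3′ on the gene's strand, with GGAATG or its reverse complement CATTCC in capitals. Amotl2 lies at chr9:102717554-102717853 (plus strand), Crim1 at chr17:78199998-78200297 (plus strand), Vgll3 at chr16:65814939-65815238 (plus strand) and Wwc2 at chr8:47990495-47990794 (minus strand).
Amotl2: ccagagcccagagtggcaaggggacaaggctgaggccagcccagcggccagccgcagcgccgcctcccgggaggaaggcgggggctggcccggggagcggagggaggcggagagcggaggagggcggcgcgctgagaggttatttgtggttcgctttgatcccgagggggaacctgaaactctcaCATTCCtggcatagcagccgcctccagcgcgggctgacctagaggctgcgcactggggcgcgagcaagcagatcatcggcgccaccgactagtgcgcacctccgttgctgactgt
Crim1: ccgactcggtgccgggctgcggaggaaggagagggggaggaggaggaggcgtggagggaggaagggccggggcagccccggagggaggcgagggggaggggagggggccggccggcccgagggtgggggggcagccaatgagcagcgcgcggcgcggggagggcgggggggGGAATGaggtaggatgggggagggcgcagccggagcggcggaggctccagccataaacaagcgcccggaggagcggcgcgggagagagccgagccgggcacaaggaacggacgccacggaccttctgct
Vgll3: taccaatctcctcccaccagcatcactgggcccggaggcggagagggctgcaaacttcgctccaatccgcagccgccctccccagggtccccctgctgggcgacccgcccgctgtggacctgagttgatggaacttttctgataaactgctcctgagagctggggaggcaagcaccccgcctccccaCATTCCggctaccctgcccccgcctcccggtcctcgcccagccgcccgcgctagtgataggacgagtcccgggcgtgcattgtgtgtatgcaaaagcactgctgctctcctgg
Wwc2: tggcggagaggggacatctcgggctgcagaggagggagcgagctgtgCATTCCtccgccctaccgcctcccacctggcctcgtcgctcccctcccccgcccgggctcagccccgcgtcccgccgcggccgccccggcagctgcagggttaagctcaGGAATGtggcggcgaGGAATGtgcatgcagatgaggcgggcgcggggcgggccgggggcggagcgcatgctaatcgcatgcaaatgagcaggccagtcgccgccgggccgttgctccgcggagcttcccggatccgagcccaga
The motif lay 65 bases before the start in Amotl2, 79 in Crim1 and 63 in Vgll3, and 203, 94 and 79 bases before it in Wwc2. It was also found in the promoters of Yap1 and Wwtr1. Of the 7 genes of both lists that fell, 6 had a promoter in the table and all 6 held the motif, against 9 of 26 that were tested and did not pass. The 6 included Yap1 and Wwtr1, which the knockdown itself targets. Of their calls only that of Vgll3 held whichever library was left out, and the contrast was not tested. The motif was held by 18 of 132 rising genes (13.6%), 30 of 163 falling genes (18.4%) and 14.3% of all tested genes with a promoter, against 16.6% of all 27025 genes in the table. The 2 lists were drawn up as YAP/TAZ and TEAD genes, so a TEAD motif in their promoters is a description and not a site shown to be bound in these cells.

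Of the cluster's own marker genes several were higher in KD than in Control and others did not differ beyond the spread. Cells had been placed in the cluster by their own RNA, in which these genes were included. The p-values of marker genes, here and in the next paragraph, therefore compare cells partly chosen by the same values. How far this choice shaped the differences between KD and Control was not tested. Penk was at 1219 and 909 CPM in KD, against 375 and 385 CPM in Control. Both KD libraries were more than 2-fold above both Control libraries, and the log2 fold change was 1.48 ± 0.18 (adjusted p = 1.83e-05). Cells with at least 10 Penk UMIs numbered 111 and 48 in KD against 23 and 24 in Control. Penk was held by 50.6% and 35.2% of KD cells against 28.7% and 26.8% of Control cells at 2000 UMIs (before thinning 65.1% and 52.7% against 36.2% and 34.1%), and by 11.4% and 5.38% against 4.21% and 4.76% of AT2 cells. Moxd1 was at 82.5 and 111 CPM in KD against 27.9 and 21.9 CPM in Control, with a log2 fold change of 1.95 ± 0.20 (adjusted p = 2.86e-06). Camk4 fell, with 12.4 and 9.40 CPM in KD against 31.3 and 31.6 CPM in Control and a log2 fold change of -1.50 ± 0.25 (adjusted p = 0.000804). The calls of these 3 genes held whichever library was left out.

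Col18a1 was at 882 and 1086 CPM in KD against 487 and 671 CPM in Control, with no overlap and a log2 fold change of 0.76 ± 0.18 (adjusted p = 0.0205). Mfap4 was at 604 and 639 CPM in KD against 298 and 449.5 CPM in Control, with a log2 fold change of 0.73 ± 0.18 (adjusted p = 0.0246). Inmt was at 140.3 and 264 CPM in KD against 91.5 and 111 CPM in Control, with a log2 fold change of 0.97 ± 0.21 (adjusted p = 0.0107). These 3 calls each rested on KD library 2, without which their adjusted p was 0.189, 0.0999 and 0.376; without Control library 1 it was 0.112 for Col18a1 and 0.231 for Mfap4. Apod, by contrast, was at 43.7 and 91.0 CPM in KD and 97.2 and 50.7 CPM in Control, A2m at 273 and 325 CPM and 257 and 350.1 CPM, and Fgg at 31.3 and 45.5 CPM and 27.9 and 52.7 CPM. In these 3 genes the groups overlapped, and the adjusted p was 0.818, 0.961 and 0.861.

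The 12 largest rises among genes that reached 20 CPM in either group's mean were headed by genes close to absent in Control. Pcp4, which encodes a small calmodulin-binding peptide (chr16:96467606-96525793, plus strand), was at 48.5 and 32.6 CPM in KD against 0 and 0.406 CPM in Control. This was 207 UMIs in KD against 1 in Control, a ratio of 183 relative to the summed UMIs with a 95% counting interval of 32.4 to 7255 (adjusted p = 4.36e-08). Mmp9, a gelatinase (chr2:164940780-164955850, plus strand), was at 47.8 and 31.6 CPM against 0.481 and 1.62 CPM, with a log2 fold change of 5.13 ± 0.43 (adjusted p = 1.64e-07). Both genes were near 0 in both Control libraries. Adgrg1, an adhesion receptor, was at 62.6 and 59.8 CPM against 3.37 and 4.46 CPM, a log2 fold change of 3.93 ± 0.27 (adjusted p = 1.30e-08). The kinase Dapk3 was at 38.2 and 49.5 CPM in KD against 4.33 and 5.68 CPM in Control, a log2 fold change of 3.08 ± 0.29 (adjusted p = 6.34e-07). In each of these genes the KD libraries lay several-fold above both Control libraries. Retnla, a secreted protein that type 2 inflammation induces in lung, was at 54.7 and 74.7 CPM in KD against 10.1 and 6.09 CPM in Control, a log2 fold change of 2.99 ± 0.26 (adjusted p = 2.94e-07). Its UMIs lay in 56 and 54 cells in KD and 20 and 13 cells in Control, and 4 and 3 KD cells with at least 10 each held 44.0% and 37.7% of the KD UMIs.

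Wif1, a secreted inhibitor of Wnt ligands (chr10:121033960-121100650, plus strand), was at 31.6 and 28.7 CPM in KD, against 5.78 and 4.46 CPM in Control. The groups were far apart, with a log2 fold change of 2.56 ± 0.30 (adjusted p = 1.38e-05). The mean of Wif1 in the other 4 clusters was at most 1.44 CPM and its level in AT2 cells at most 1.47 CPM. Ccl11, the eosinophil chemokine eotaxin (chr11:82057823-82062955, plus strand), was at 272 and 379.8 CPM in KD against 45.7 and 92.9 CPM in Control, a log2 fold change of 2.21 ± 0.23 (adjusted p = 2.86e-06). Cebpb, a transcription factor of adipocyte and inflammatory genes, was at 253 and 616 CPM against 93.9 and 60.0 CPM, with KD library 2 the highest. Its log2 fold change was 2.49 ± 0.29 (adjusted p = 1.36e-05). Megf11, a transmembrane protein with EGF repeats, was at 139 and 94.95 CPM against 24.6 and 16.2 CPM (log2 fold change 2.54 ± 0.22). Etl4, the lysozyme gene Lyz2 and Gm13889 made up the rest, with log2 fold changes of 2.51, 2.31 and 2.19. The 12 calls held whichever library was left out. The near-identical Lyz1 may share reads with Lyz2.

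The 12 largest falls included 3 of the airway secretory markers, Scgb3a1, Bpifa1 and Scgb1a1. Ltf (lactoferrin) was at 0.344 and 1.48 CPM in KD against 50.1 and 17.0 CPM in Control, a log2 fold change of -5.25 ± 0.62. Cbr2, a carbonyl reductase of airway cells, was at 1.72 and 26.7 CPM against 169 and 119 CPM, a log2 fold change of -3.53 ± 0.41. Scgb3a1, a secretoglobin of airway secretory cells, was at 0 and 202 CPM in KD against 1307 and 211 CPM in Control. For Scgb3a1, KD library 2 lay just under Control library 2, and KD library 1 and Control library 1 made the difference (adjusted p = 0.0453). Reg3g, a secreted antimicrobial lectin, was at 0.344 and 147 CPM against 589 and 371 CPM. Pglyrp1, Bpifa1, Cxcl17, Scgb1a1 and Gpx2 also fell. By DESeq2 the falls of Cbr2, Scgb3a1, Bpifa1, Reg3g, Cxcl17 and Scgb1a1 did not pass, with an adjusted p of 0.406 for Cxcl17, 0.491 for Cbr2, 0.954 for Bpifa1 and 1 for the other genes.

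For several of these genes the AT2 cells of the same libraries showed a like order. Scgb3a1 was at 0 and 132 CPM in AT2 cells of the KD libraries, against 1049 and 166 CPM in those of the Control libraries. Reg3g was at 0.549 and 106 CPM against 465 and 299 CPM, and Cbr2 at 10.1 and 22.6 CPM against 168 and 112 CPM. In each of these 3 genes KD library 1 was the lowest and Control library 1 the highest in both cell types. Some rising genes did likewise, with Pcp4 at 37.2 and 19.5 CPM in AT2 cells of KD against 0 and 0 CPM in Control, Dapk3 at 34.2 and 38.5 CPM against 5.48 and 5.88 CPM, and Mmp9 at 24.5 and 14.6 CPM against 1.83 and 4.52 CPM. Cebpb was at 83.3 and 167 CPM in AT2 cells of KD against 23.3 and 12.7 CPM in Control. Both KD libraries also lay above both Control libraries in AT2 cells for Hspb1, Jund, Igfbp7, Vegfa and Cxcl14, described below. For Cxcl5, Ptgs2 and Col15a1, also described below, the groups overlapped in AT2 cells. Others were several-fold lower in AT2 cells than in cluster 8 of the KD libraries: Ccl11 was at 14.8 and 9.16 CPM in AT2 cells of KD against 5.94 and 9.05 CPM in Control, and Megf11 at 11.4 and 12.2 CPM against 6.85 and 1.81 CPM. Further genes were more abundant in AT2 cells than in cluster 8: Adgrg1 was at 128 and 150.1 CPM in AT2 cells of KD against 134 and 149.7 CPM in Control, Retnla at 172 and 172 CPM against 84.95 and 102 CPM, and Lyz2 at 544 and 540.2 CPM against 446 and 583 CPM. Of the 186 rising genes, 95 (51.1%) were also higher in both KD libraries than in both Control libraries among AT2 cells, against 19.0% of all genes tested. Of the 220 falling genes, 123 (55.9%) were also lower there, against 18.7%. The part that RNA from other cells had in these changes was not tested.

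The remaining 3 of the 12 largest falls were at most 13.6 CPM in AT2 cells of any library. There too KD lay below Control for Col8a1, at 0.733 and 1.83 CPM against 5.02 and 13.6 CPM. Gucy1a2 did likewise, at 4.40 and 3.05 CPM against 5.94 and 4.52 CPM. Ripor3 was near 0 in AT2 cells, at 0.733 and 0 CPM in KD and 0.457 and 0 CPM in Control. Col8a1, a short-chain collagen (chr16:57624258-57754737, minus strand), was at 8.25 and 5.93 CPM in KD against 25.03 and 32.9 CPM in Control, a log2 fold change of -2.00 ± 0.28 (adjusted p = 0.00016). Gucy1a2, a subunit of the nitric oxide receptor guanylate cyclase, was at 8.60 and 5.44 CPM against 27.9 and 21.5 CPM (log2 fold change -1.76 ± 0.30). Ripor3 was at 8.94 and 6.92 CPM against 27.9 and 26.0 CPM (log2 fold change -1.73 ± 0.27). In all 3 genes both KD libraries lay below both Control libraries by more than 2-fold, and the calls held whichever library was left out; that of Gucy1a2 was lost among cells with up to 25% mitochondrial UMIs (adjusted p = 0.133).

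**Figure D2:**
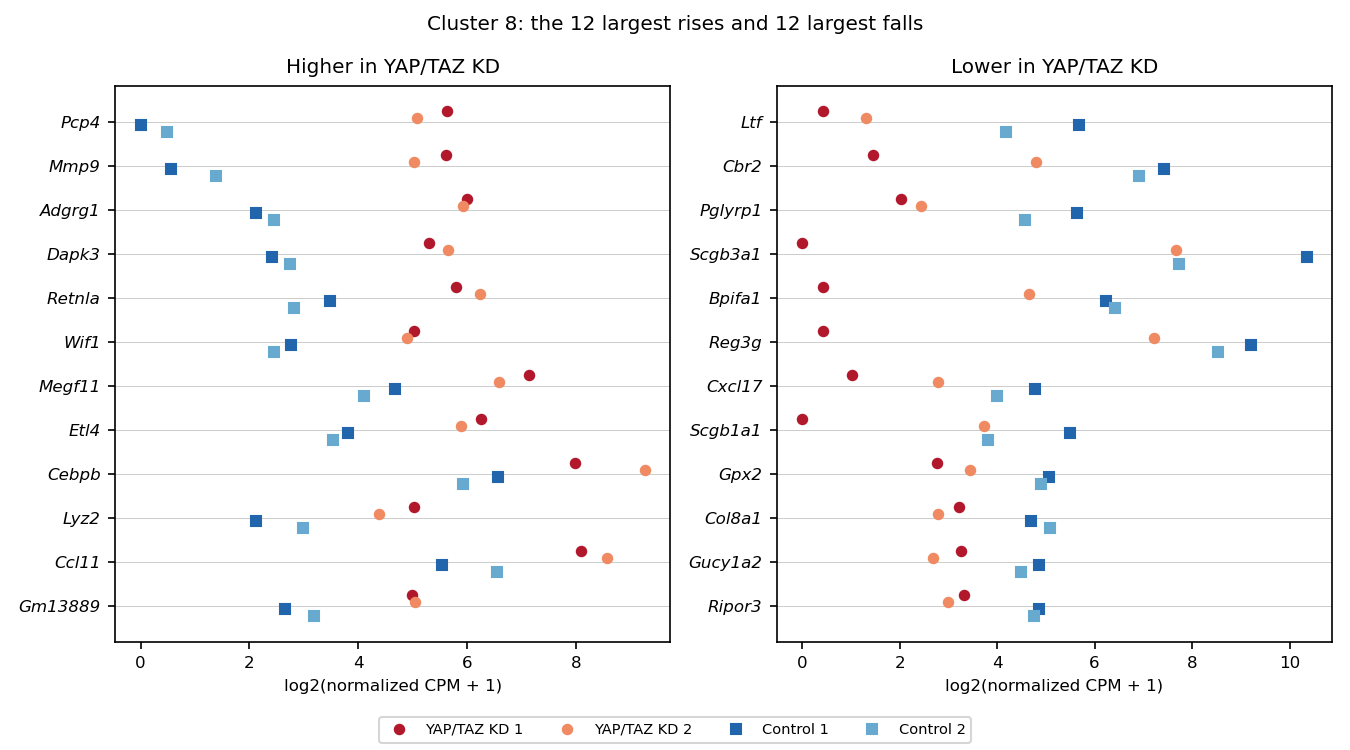
The 12 largest rises (left) and 12 largest falls (right) in cluster 8, as log2(normalized CPM + 1) per library; circles are YAP/TAZ KD and squares Control. In the rises both KD libraries lie right of both Control libraries, and in the falls KD library 1 lies far left of the rest for Scgb3a1, Reg3g, Bpifa1 and Scgb1a1.

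**Figure D3:**
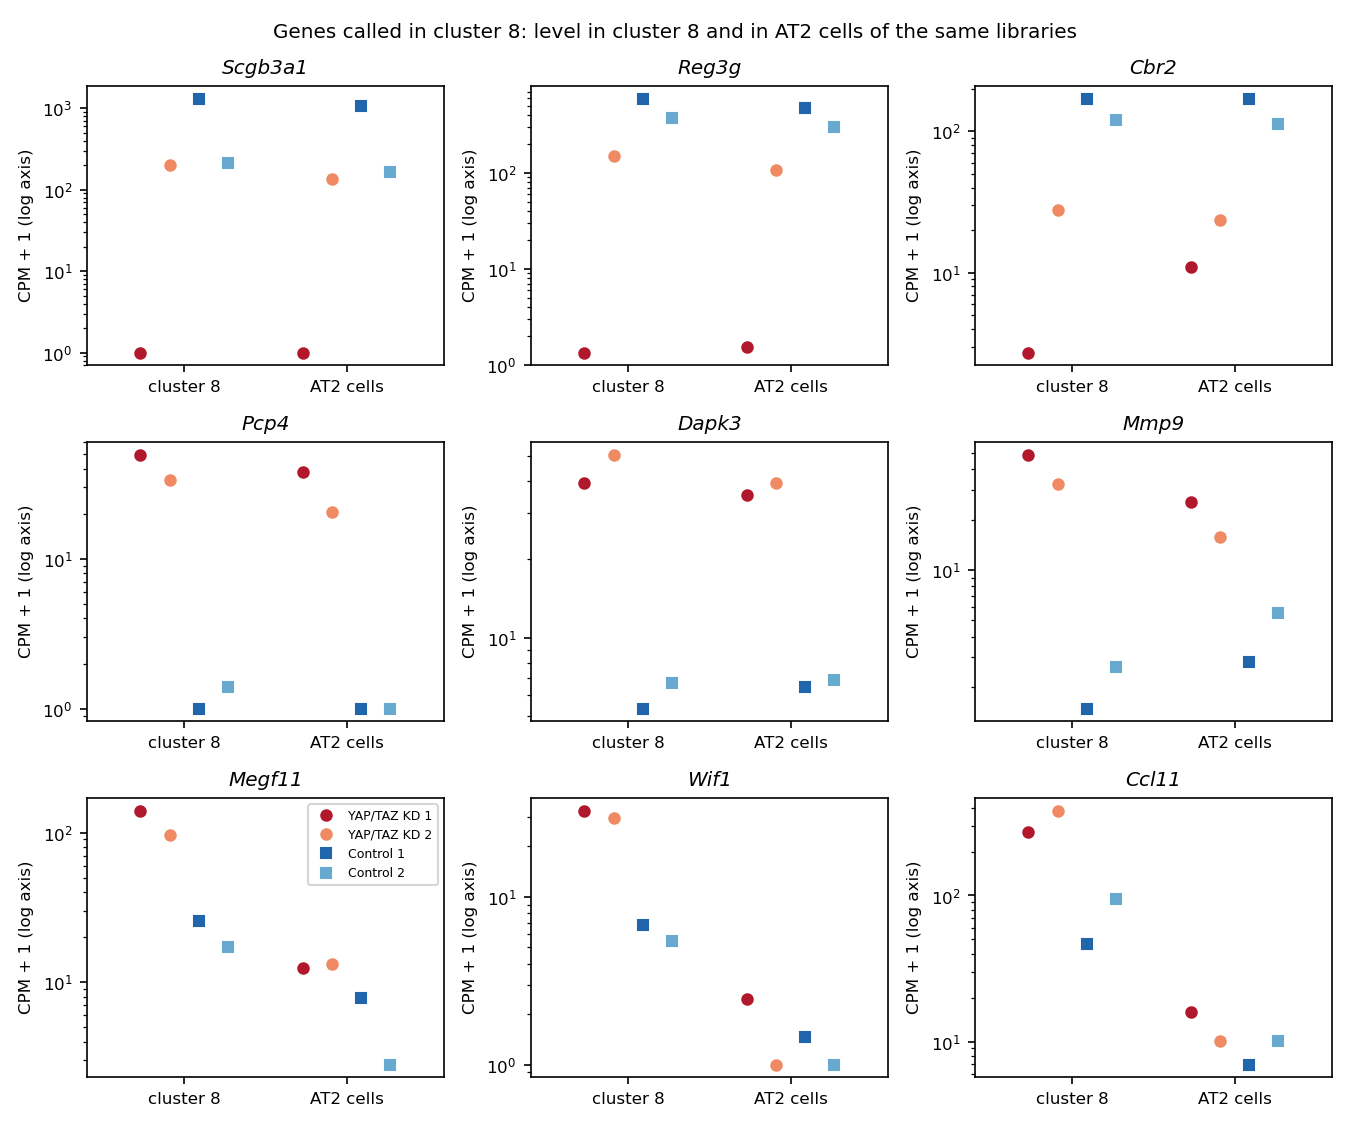
Levels of 9 genes that passed the test in cluster 8, shown in cluster 8 and in AT2 cells of the same 4 libraries, as CPM + 1 on a log axis; circles are YAP/TAZ KD and squares Control. The points of Scgb3a1, Reg3g, Cbr2, Pcp4 and Dapk3 have similar heights in both cell types, whereas Megf11, Wif1 and Ccl11 lie higher in cluster 8.

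Among signalling genes, Wif1 rose with a firm call, and other genes of its list rose with calls that were not firm. Of 15 tested Wnt ligands, R-spondins and secreted antagonists 4 rose and 0 fell, with a median log2 fold change of 0.48, against 1.73% rising among all genes tested. They were Wif1 and Dkk2, Dkk3 and Frzb, and without 1 library in turn 2 to 5 of the list rose. By DESeq2 1 of the 15 rose, Wif1. Frzb, a secreted decoy of the Frizzled receptors, was at 231 and 267 CPM in KD against 130.5 and 188 CPM in Control, with a log2 fold change of 0.64 ± 0.17 (adjusted p = 0.0393, or 0.269 without KD library 2 and 0.408 without Control library 1). Dkk3 had a log2 fold change of 0.64 ± 0.15 (0.0184, or 0.196 without KD library 2 and 0.0758 without Control library 1), and Dkk2 one of 1.57 ± 0.37 (0.0184, or 0.327 without KD library 1). The most abundant antagonist, Sfrp1, was at 2881 and 3203 CPM in KD and 2609.8 and 3941 CPM in Control, with the KD libraries inside the Control range. Wnt4, a Wnt ligand that the title of the series names, was at 30.6 and 26.2 CPM in KD and 13.0 and 30.4 CPM in Control. Control library 1 alone was low, and the log2 fold change of Wnt4 was 0.36 ± 0.27 (adjusted p = 0.549). Wnt5a was at 102 and 97.9 CPM against 67.4 and 71.4 CPM and just missed the threshold (adjusted p = 0.0635). Of 11 tested Wnt target genes 1 rose (0 by DESeq2), Twist1 (adjusted p = 0.0465), a call lost whichever library was left out (0.0616 to 0.252).

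Of 20 tested growth factors of the AT2 niche 4 rose and 2 fell, and by DESeq2 1 rose and 1 fell. Over all genes tested edgeR gave 1.73% rising and 2.04% falling, and DESeq2 gave 131 of 10766 in either direction. Fst (follistatin), which binds and blocks activins, was at 175 and 188 CPM in KD against 71.7 and 86.0 CPM in Control, a log2 fold change of 1.20 ± 0.16 (adjusted p = 5.43e-05). Angptl4, Il33 and Tgfb3 also rose and Il6 and Nrg1 fell, but of these each call was lost without at least 1 library: Angptl4 without KD library 2 (0.190) or Control library 1 (0.392), Il33 and Nrg1 without KD library 2 (0.29997 and 0.182), Tgfb3 without KD library 2 (0.140) or Control library 1 (0.0637), and Il6 without KD library 1 (0.385). Of 12 tested BMP pathway genes 0 passed in either direction by edgeR or DESeq2. At an unadjusted p under 0.05 by edgeR there were 6, against 1841 of all 10766 genes. Of 9 tested IGF pathway genes 2 rose, and by DESeq2 0 did. Igfbp7, a secreted binding protein, was at 2952 and 3209 CPM in KD against 679 and 1368 CPM in Control, a log2 fold change of 1.59 ± 0.24 (adjusted p = 0.000271). Igfbp5 rose by 0.74 ± 0.20 on the log2 scale (adjusted p = 0.0422), a call lost without KD library 2 (0.647).

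Of 19 tested chemokines, cytokines and acute phase genes 6 rose and 1 fell, and by DESeq2 4 rose and 0 fell. The shares over all genes were 1.73% rising and 2.04% falling by edgeR. Beside Ccl11, the neutrophil chemokine Cxcl5 was at 128 and 166 CPM in KD against 74.1 and 70.2 CPM in Control, a log2 fold change of 1.02 ± 0.16 (adjusted p = 0.00065). Ptgs2, the inducible cyclooxygenase, was at 182 and 172 CPM against 96.8 and 105 CPM, a log2 fold change of 0.80 ± 0.15 (adjusted p = 0.00306). Cxcl14, the most abundant chemokine of the list, was at 1398 and 1937 CPM against 729.8 and 989 CPM, a log2 fold change of 0.95 ± 0.20 (adjusted p = 0.0069, or 0.0870 without KD library 2). In these 3 genes both KD libraries lay above both Control libraries. Cxcl1 and Il33 also rose and Il6 fell; the call of Cxcl1 was lost without KD library 2 (0.489) or Control library 2 (0.0604). Cxcl12, the ligand of Cxcr4, was at 217 and 289 CPM in KD and 206 and 292 CPM in Control and did not pass. Of 11 tested interferon response genes 0 passed by edgeR or DESeq2. At an unadjusted p under 0.05 by edgeR there were 4, against 1841 of all 10766 genes. Of the 6 immune markers 2 were tested, and of these Lyz2 rose, a gene more abundant in AT2 cells than in cluster 8, as given above. The 6 markers summed to 42.3 and 30.7 CPM in KD against 10.1 and 14.6 CPM in Control. Cd3e was at 0 in every library and Ptprc at most 0.495 CPM.

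Genes of the fibroblast states moved in both directions. Their counts are read against the 1.73% of all genes that rose and the 2.04% that fell. Of 19 tested alveolar fibroblast and lipofibroblast genes 3 rose (Cebpb, Inmt, Mfap4) and 4 fell (Gpc3, Gyg, Limch1, Slit2); by DESeq2 2 rose and 2 fell. Limch1, an activator of non-muscle myosin, was at 68.4 and 58.4 CPM in KD against 125 and 123 CPM in Control, a log2 fold change of -0.97 ± 0.16 (adjusted p = 0.000692) that held whichever library was left out. The calls of Gyg (0.0868 without KD library 1), Slit2 (0.209 without KD library 2) and Gpc3 (0.0785 to 0.188, whichever library was left out) did not. Of 12 tested adventitial genes 4 rose and 0 fell (1 and 0 by DESeq2), of which Ccl11 and Il33 stand in the chemokine list too; Ly6c1 rose with calls lost whichever library was left out (0.0580 to 0.126), and Serpinf1, an antiangiogenic serpin, with calls lost without KD library 1 (0.129), KD library 2 (0.0875) or Control library 1 (0.292). Ly6c1 may share reads with its near copy Ly6c2. Of 15 tested contractile genes 0 rose and 1 fell (0 by DESeq2), Des, which encodes the muscle filament desmin (adjusted p = 0.0141, or 0.133 without KD library 1 and 0.0508 without Control library 1). Acta2, the actin of myofibroblasts, was at 187 and 229 CPM in KD and 216 and 294 CPM in Control and did not pass.

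The structural lists are read against the 3.77% of all genes that passed. Of 22 tested fibrillar collagen and matrix genes 1 rose (Spon1) and 2 fell (Col8a1 and Tnc), and the median log2 fold change was -0.03. Tnc was at 435 and 377 CPM in KD against 560.4 and 691 CPM in Control, a log2 fold change of -0.63 ± 0.17 (adjusted p = 0.0357, or 0.343 without KD library 2 and 0.146 without Control library 2). The call of Spon1 was lost without KD library 1 (0.0581). Of 14 tested basement membrane genes 2 rose, Col18a1 and Col15a1. Col15a1, the paralogue of Col18a1, was at 157 and 129.6 CPM in KD against 63.5 and 56.8 CPM in Control, a log2 fold change of 1.25 ± 0.16 (adjusted p = 5.43e-05) that held whichever library was left out. Of 14 tested elastic fibre genes 1 rose, Mfap4; Eln was at 706 and 616 CPM in KD against 428 and 460.1 CPM in Control and missed the threshold at an adjusted p of 0.051. Of 16 tested matrix metalloproteinases and inhibitors 1 rose (Mmp9) and 1 fell (0 by DESeq2), Mmp8, a call lost whichever library was left out (0.0514 to 0.226).

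Stress and transcription factor genes completed the lists, again beside 1.73% rising and 2.04% falling among all genes tested. Of 17 tested immediate early and heat shock genes 4 rose and 0 fell, and by DESeq2 2 and 0. Hspb1, a small heat shock protein, was at 100.1 and 139 CPM in KD against 33.7 and 41.8 CPM in Control, a log2 fold change of 1.64 ± 0.19 (adjusted p = 1.36e-05), and Jund, an AP-1 factor, was at 277 and 299 CPM against 152 and 148 CPM, a log2 fold change of 0.94 ± 0.15 (adjusted p = 0.000766). Both held whichever library was left out, whereas Zfp36 and Hspa1b lost their calls without KD library 2 (0.459 and 0.407) or Control library 2 (0.181 and 0.0510), and Hspa1b may share reads with Hspa1a. Of 13 tested hypoxia and glycolysis genes 1 rose, Vegfa, at 120.0 and 103 CPM in KD against 61.1 and 58.0 CPM in Control (log2 fold change 0.90 ± 0.16, adjusted p = 0.00179). Of 22 tested mesenchymal transcription factors 3 rose and 2 fell, and by DESeq2 0 and 1. Prrx2 was at 55.0 and 61.8 CPM in KD against 26.5 and 34.5 CPM in Control (log2 fold change 0.92 ± 0.19, adjusted p = 0.00775), while its paralogue Prrx1 was at 145 and 143 CPM against 236 and 227 CPM (log2 fold change -0.68 ± 0.15, adjusted p = 0.0123). The call of Prrx1 was lost without KD library 1 (0.0521), KD library 2 (0.109) or Control library 1 (0.0505), that of Ebf1 without KD library 2 (0.121) or Control library 1 (0.113), and that of Tbx2 whichever library was left out (0.0576 to 0.183). Of 15 tested TGF-beta response genes 1 rose (Tgfbi, lost without KD library 1 at 0.226) and of 15 tested p53 and senescence genes 1 rose (Igfbp7), and by DESeq2 0 rose in either list. Of 14 tested S phase, 11 G2/M and 5 Notch genes 0 passed by edgeR or by DESeq2. At an unadjusted p under 0.05 by edgeR there were 2, 3 and 0, against 1841 of all 10766 genes. The G2/M median log2 fold change was -0.39.

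**Figure D4:**
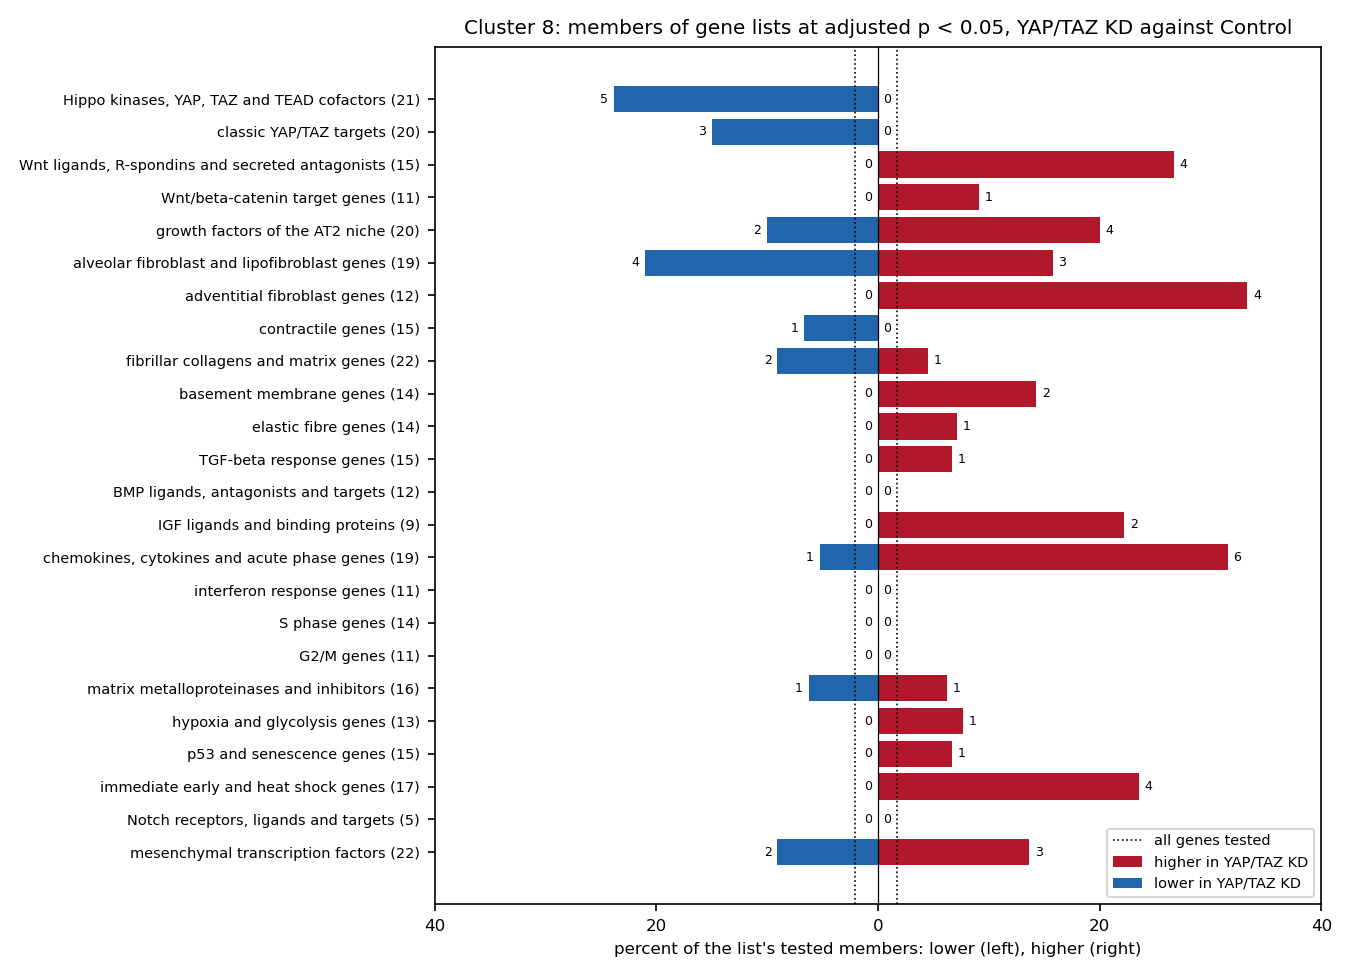
Percent of each list's tested members that rose (red, right) or fell (blue, left) in YAP/TAZ KD cells of cluster 8 at an adjusted p under 0.05; the number of members tested stands in brackets and the number that passed at each bar. Dotted lines mark the 1.73% of all 10766 genes that rose and the 2.04% that fell.

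The genes that fell in cluster 8 were longer than those that rose. Falling genes had a median genomic length of 115 kb and rising genes one of 15.1 kb, against 26.6 kb for all genes tested. Over 10761 genes the rank correlation (Spearman) of length with the change in KD was -0.32. Length moved within the groups as well, with a correlation of 0.23 for KD library 1 minus KD library 2 and of 0.17 for Control library 1 minus Control library 2. Genes are not independent of each other, so no test is given. The sources used here do not say if intronic reads were counted.

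The last question was whether the knockdown acted differently in cluster 8 than in the rest of its class. The difference between the effect in cluster 8 and that in clusters 0, 5, 11 and 18 summed together, with library as a block, passed for 176 of 13361 genes (1.32%), 68 more positive in cluster 8 (0.509%) and 108 more negative (0.808%). The pooled cells were not alike in the groups: cluster 5 made up 84.9% and 90.5% of them in KD, and cluster 0 made up 66.3% and 57.1% in Control. Effect and cluster composition cannot be told apart in this comparison. Cluster 11, which had enough cells in every library, was therefore set against cluster 8 alone, and there the difference passed for 33 of 10999 genes (0.3%), 10 more positive (0.0909%) and 23 more negative (0.209%); 7 genes passed in both comparisons. The knockdown itself passed within cluster 11 for 48 of 9254 genes (0.519%), 37 higher (0.4%) and 11 lower (0.119%), and in the 4 pooled clusters for 1111 of 14068 genes (7.9%), 509 higher (3.62%) and 602 lower (4.28%). In KD libraries 1 and 2 cluster 11 held 134 and 86 cells with 627298 and 540864 UMIs. Cluster 8 held 631 and 347 cells with 3064197 and 1992252 UMIs there. Because depth differed, these counts do not rank the clusters by strength of effect.

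Retnla and Cyp2f2 were more positive in cluster 8 in both comparisons, and Rnf217 more negative. Retnla was at 8.24 and 34.3 CPM in KD cells of cluster 11 against 15.8 and 13.4 CPM in its Control cells, with overlapping groups, and its effect in cluster 8 was 2.47 ± 0.42 higher on the log2 scale (adjusted p = 0.000102). Cyp2f2, a cytochrome P450 of airway secretory cells, was at 44.7 and 63.3 CPM in KD against 40.9 and 41.8 CPM in Control in cluster 8, and at 8.24 and 19.9 CPM against 21.1 and 50.1 CPM in cluster 11. The difference was 1.73 ± 0.39 (adjusted p = 0.0116). Rnf217, a ubiquitin ligase gene, was at 416 and 344 CPM in KD against 908 and 749 CPM in Control in cluster 8, and at 208 and 161 CPM against 294 and 258 CPM in cluster 11. Both KD libraries lay below both Control libraries in each cluster, and the log2 fold change was lower by 0.60 ± 0.14 in cluster 8 (adjusted p = 0.0275).

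Among the genes chosen here after their values were seen, Col8a1 and Tnc had the smallest adjusted p, shared with Sned1. In cluster 11 Col8a1 was at 128 and 143 CPM in KD against 149 and 166 CPM in Control, so the fall seen in cluster 8 was larger by 1.83 ± 0.30 on the log2 scale (adjusted p = 5.76e-05). Tnc was at 1054 and 1265 CPM in KD against 1152 and 1136 CPM in Control in cluster 11, and the effect in cluster 8 was lower by 0.69 ± 0.11. Abi3bp, a matrix protein, was at 207 and 215 CPM in KD against 522 and 531 CPM in Control in cluster 8 and at 186 and 248 CPM against 260 and 366 CPM in cluster 11; the difference was -0.84 ± 0.15 (adjusted p = 0.000241). In the inflammatory genes Ccl2 and Saa3 the KD effect was lower in cluster 8 than in cluster 11. Ccl2, a monocyte chemokine, was at 357 and 437 CPM in KD against 170 and 205 CPM in Control in cluster 11, where it rose, and at 48.8 and 52.4 CPM against 38.5 and 51.9 CPM in cluster 8, and the difference was -0.97 ± 0.19 (adjusted p = 0.000904). For Saa3 the difference was -1.38 ± 0.24 (adjusted p = 0.000166), with 267 and 146 CPM against 63.3 and 142 CPM in cluster 11 and 23.7 and 22.7 CPM against 16.8 and 39.8 CPM in cluster 8. In cluster 11 KD library 2 thus lay close to Control library 2 for Saa3. The comparison with cluster 11 was not repeated with 1 library left out. Cxcl14 was at 506 and 392 CPM in KD and 338 and 465 CPM in Control in cluster 11, and its effect was higher in cluster 8 than in cluster 11 by 0.71 ± 0.12 (adjusted p = 0.000146). Megf11 rose in both clusters, and by less in cluster 8 (difference -1.50 ± 0.35, adjusted p = 0.0178). Wnt4 did not pass against the pooled clusters, with a difference of -0.75 (adjusted p = 0.0854).

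**Figure D5:**
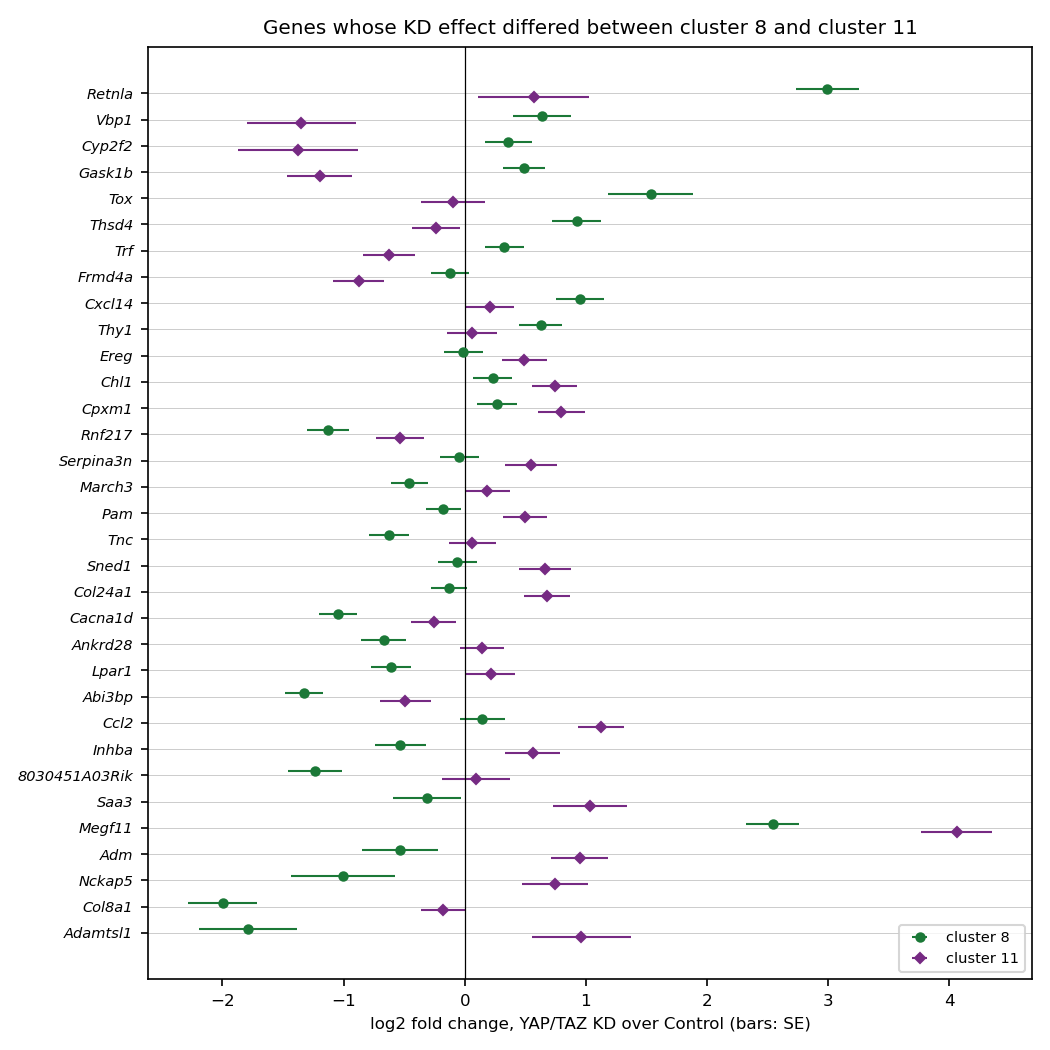
KD effect (log2 fold change of YAP/TAZ KD over Control, bars ± SE) in cluster 8 (circles) and cluster 11 (diamonds) for the 33 genes in which the 2 effects differed at an adjusted p under 0.05, ordered by the difference. Retnla, Cxcl14 and Thy1 lie farther right in cluster 8, and Col8a1, Abi3bp, Ccl2 and Saa3 farther left.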

How the data were processed

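RNA was measured per cell in 4 libraries. The authors deposited raw counts of UMIs per gene and cell for 32285 genes (builds GRCm38 and mm10, named in the submitters' processing notes). Aligner, counter, and use of introns and strand: not given in the sources used here. They also deposited the mitochondrial percent, a doublet enrichment ratio and a score of enrichment at transcription start sites per cell, with at least 533 UMIs, 402 genes and at most 35.0% mitochondrial UMIs in every cell. Another 50 columns of values per cell were left unused. Cells with a barcode also found in another library were kept, and no doublets were removed beyond the authors' own steps.

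Counts were summed per library over cells of cluster 8, since cells are not replicates. The sums were tested with edgeR 4.0.16 in R 4.3.3 (TMM scaling, its default filter on low counts, quasi-likelihood test, Benjamini-Hochberg adjustment, threshold 0.05); all adjusted p-values come from it unless DESeq2 1.42.0 or limma 3.58.1 is named. The test was also run on simulated counts with known changes and the same spread for every gene. Those counts held no shared library effects, RNA from other cells or differences in cluster makeup, so they cannot show how the test fares with these. CPM in tests are scaled by TMM, those by cluster and of AT2 cells (deposited cluster 9) are not; marker ratios used log2(CPM + 5). Named genes were the 12 largest changes each way with 20 CPM in a group mean, passing list members, 12 genes farthest above and below the other clusters, and 8 effect differences each way; genes passing against cluster 11 were added after their values were seen. The members and lists were chosen with earlier results of these data known. Promoters and coordinates came from RefSeq and GENCODE tables.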

Additional observations from a re-analysis of the deposited data

Results flagged for a closer look

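The results below drew attention because the change from Control to KD in cluster 8 differed from that in the other fibroblasts. The test was of the difference itself, the term for cluster by group in edgeR's quasi-likelihood test. Cluster 5 made up 84.9% and 90.5% of the pooled other cells in KD, and cluster 0 made up 66.3% and 57.1% in Control. Against the pooled clusters, effect and cluster composition therefore cannot be told apart. In both comparisons the term was fitted with library as a block. It passed for 176 genes against clusters 0, 5, 11 and 18 together and for 33 genes against cluster 11 alone. The genes with the smallest adjusted p and a more positive effect in cluster 8 were Csmd1 (difference in log2 fold change 1.02), Cyp2f2 (1.93), Eln (0.80), Nrep (1.14), Retnla (2.37), Ifitm1 (0.80), Hmcn1 (0.66) and Alcam (0.71). Those with a more negative effect were Slc6a5 (-2.55), Kiz (-0.96), Rnf217 (-0.78), Adamts9 (-0.75), Sntg1 (-0.80), Dgat1 (-0.78), Il1rapl1 (-0.78) and Map1b (-1.05).

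Eln, the elastin gene, was at 690 and 599 CPM in KD against 427 and 454 CPM in Control in cluster 8, and at 208 and 144 CPM in KD against 199 and 219 CPM in Control in the pooled clusters. Slc6a5, a glycine transporter, was at 21.8 and 13.9 CPM in KD against 48.0 and 72.0 CPM in Control in cluster 8, and at 39.0 and 42.8 CPM against 19.4 and 25.9 CPM in the pooled clusters, so its groups were in opposite order. Csmd1 was at 1193 and 1086 CPM in KD against 976 and 897 CPM in Control in cluster 8, and at 293 and 195 CPM against 437 and 371 CPM in the pooled clusters. Csmd1 averaged 1464 CPM in cluster 18, which was at most 2.93% of the pooled cells in the KD libraries and 17.2% and 14.6% in Control libraries 1 and 2. The difference of Hmcn1 had an adjusted p of 0.0542 and that of Map1b one of 0.163 without Control library 1. Against cluster 11 alone, Cyp2f2, Retnla and Rnf217 passed again and the other 13 of these 16 genes did not.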

How the results depend on the processing

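The 406 genes that differed between KD and Control in cluster 8 became 131 by DESeq2, 230 after thinning to 2000 UMIs per cell and 213 with equal cells per library; leaving out 1 library in turn gave 189 (without KD library 2) to 592 (without Control library 2), with 262 without Control library 1. With RLE scaling, limma voom, no filter, cells up to 25% mitochondrial UMIs, no cells of high doublet enrichment or cells that both annotations call fibroblasts (chosen after seeing the data), the count was 332 to 577. The replicate block gave 1388. Same-numbered libraries deviated with a correlation of 0.0858, and this value alone cannot show if they shared a preparation. The 176 effect differences became 32 by DESeq2, 16 with the replicate block, 76 after thinning, 110 with cells up to 25% mitochondrial UMIs and 33 against cluster 11 alone, and 26 (without Control library 1) to 223 (without KD library 1) when 1 library was left out, with 55 without Control library 2. The more positive share was 38.6%, against 16 of 32 genes by DESeq2, 8 of 16 with the replicate block, 53.8% without Control library 1 and 48.9% without KD library 1. The effect difference of Adamts9 turned to 0.0674 against cluster 11 alone. The 344 genes higher or lower in cluster 8 than in each other cluster became 222 after thinning and 441 to 667 without 1 library, which relaxes the rule. For single named genes, 1088 alternative values of KD against Control stayed past the threshold in the same direction and 248 fell short of it. Comparisons with cluster 0, 5 or 18 alone were not run because some libraries held under 50 cells. Depth and 2 libraries per group limit what can be detected, and for the counts that moved the cause was not tested.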
